A study of Mus musculus with 9 samples.

Results

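Bone marrow cells that carry the proteoglycan Syndecan-2 on their surface were compared with the whole stem cell gate from which they were sorted. The Syndecan-2+ group has 3 libraries and the Parent group has 3 libraries, which makes 6 of the 9 libraries of the series, and they were chosen by their sample titles. Syndecan-2+ cells were KSL CD34- Syndecan-2+, that is c-Kit+, Sca-1+, lineage-negative, CD34- and stained for Syndecan-2. Parent cells were the KSL CD34- gate without a cut on Syndecan-2, so the Parent group holds both Syndecan-2+ and Syndecan-2- cells. All libraries came from femur and tibia marrow of untreated C57BL/6J mice at 10 weeks of age, with 10000 sorted cells per replicate. The remaining 3 libraries are the Syndecan-2- cells of the gate. They shared the estimate of the spread, and their values are given where they place a gene. The protocol in the labels names male mice and the series description names both sexes. The sources do not say whether replicates came from separate animals, so the p-values here reflect only how much these 3 samples per population varied, and that variation may be technical.

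Syndecans are transmembrane core proteins that carry heparan sulfate chains, and these chains bind growth factors, chemokines and matrix proteins at the cell surface. The KSL CD34- gate of adult mouse marrow is enriched for long-term haematopoietic stem cells (HSCs), which are known for high CD150 (Slamf1) and EPCR (Procr) and for low CD48 and FLT3. Cells that leave this state acquire FLT3 and CD48 and begin to transcribe lymphoid or myeloid genes at low level, a pattern called priming, and a part of the HSC pool is known to be biased towards platelets and to express Vwf.

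RNA was given as CPM (read counts scaled to a common library total) per transcript, summed per gene symbol and rescaled by the trimmed mean of M values (TMM). The most frequent nonzero value of genes with 1 transcript was taken as 1 read. It implies 18.2 to 20.6 reads per CPM in Syndecan-2+ libraries and 15.5 to 17.0 in Parent libraries. On that scale 3 reads correspond to 0.146 to 0.194 CPM before rescaling. Of the low values of these genes, 67.7 to 69.5% lay within 0.1 of a whole read, so the depth is approximate. A total of 13997 of 20635 gene symbols reached 1 CPM in at least 3 of the 9 libraries and were tested. Mitochondrial genes held 6.06 to 6.20% of the listed CPM in Syndecan-2+ libraries and 5.30 to 6.54% in Parent libraries. The replicate 2 libraries of all populations stood apart in their heat shock genes, as described with those genes. Xist was at most 0.622 CPM and the Y-linked Ddx3y was 26.2 to 30.5 CPM in Syndecan-2+ libraries and 26.9 to 31.2 CPM in Parent libraries.

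The sort was first checked on its own gene. Sdc2, which encodes Syndecan-2 (GRCm38, chr15:32920723-33034730, + strand), was at 4.97, 4.09 and 4.16 CPM in Syndecan-2+ libraries, at 0.480, 0.218 and 0.332 CPM in Syndecan-2- libraries, and at 1.76, 2.05 and 1.41 CPM in Parent libraries. Every Syndecan-2+ library lay above every Parent library. The Syndecan-2+ mean was 2.53 times the Parent mean, with a log2 fold change of 0.98 ± 0.19 (SE, limma on log2 of CPM plus 1) and an adjusted p of 0.000704. The means differed by 2.67 CPM, at an exact two-sided permutation p of 0.1, which is the smallest that 3 against 3 libraries allow. Most of the signal came from 1 coding transcript, Sdc2-001, at 4.26 ± 0.52 CPM in Syndecan-2+ and 1.27 ± 0.27 CPM in Parent libraries (SD, n = 3 each).

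Kit rose and Cd34 fell among the genes that define the gate. Kit, the c-Kit receptor, was at 259, 235 and 253 CPM in Syndecan-2+ libraries against 212, 181 and 189.9 CPM in Parent libraries, and rose by 0.36 ± 0.05 on the log2 scale (adjusted p = 1.69e-05). Ly6a, which encodes Sca-1, was at 6.96, 6.61 and 8.19 CPM against 4.36, 5.89 and 5.62 CPM in Parent libraries. Its groups did not overlap, but its log2 fold change of 0.40 ± 0.15 did not pass the test (adjusted p = 0.0606). Cd34 mRNA was present in every library of this CD34- gate, at 47.6, 45.1 and 36.1 CPM in Syndecan-2+ cells against 174, 178 and 167 CPM in Parent cells, and fell by 2.00 ± 0.06. The Syndecan-2+ mean of Cd34 was 0.248 times the Parent mean.

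The surface markers that grade HSCs within the gate separated the populations. Slamf1 (CD150) was at 11.4, 10.1 and 14.5 CPM in Syndecan-2+ libraries against 3.65, 5.25 and 3.34 CPM in Parent libraries (log2 1.36 ± 0.17). Procr was at 11.99, 13.1 and 13.1 CPM against 6.48, 7.24 and 5.57 CPM in Parent libraries (log2 0.89 ± 0.14). Both rose, with no overlap between groups. Cd48 fell to 4.46, 4.47 and 3.16 CPM in Syndecan-2+ libraries, against 14.5, 14.3 and 12.2 CPM in Parent libraries (log2 -1.55 ± 0.12). Flt3 showed the largest fall of all tested genes and is described with the lymphoid genes.

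**Figure D1:**
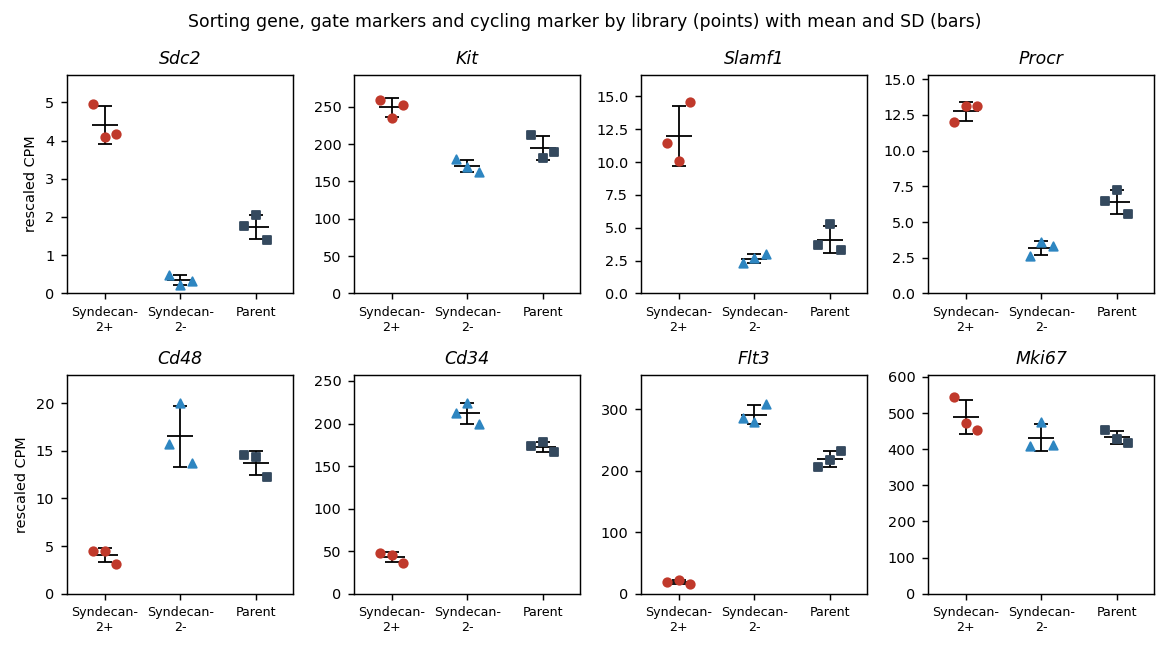
Rescaled CPM (linear axis from 0) of the sorting gene Sdc2, of 6 gate and HSC markers and of the proliferation gene Mki67 in each of the 9 libraries (points), with the mean and SD of each population (horizontal mark and error bar, n = 3 each). Sdc2, Kit, Slamf1 and Procr are higher in all Syndecan-2+ libraries than in any Parent library, and Cd48, Cd34 and Flt3 are lower in all of them. Mki67 is also higher in all of them, by a narrow margin, and its rise is described with the cell cycle genes.

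Across all tested genes, 2986 of 13997 (21.3%) differed between Syndecan-2+ and Parent cells at an adjusted p under 0.05 (limma, Benjamini-Hochberg over all genes). Of these, 1462 (10.4%) rose and 1524 (10.9%) fell. With the CPM as deposited the split was 1846 higher and 1279 lower, at a median log2 fold change of 0.046 over all genes, against 0.0054 after rescaling. All genes together are the background for the counts below. Changes were mostly modest, since 238 genes (1.7%) rose and 265 (1.89%) fell by at least 2-fold in CPM plus 1, while 2 (0.0143%) rose and 5 (0.0357%) fell by at least 8-fold. At 4-fold or more, all 16 genes (0.114%) that rose were immunoglobulin genes or Jchain, and the 39 (0.279%) that fell included none of these. Outside the immunoglobulin genes the largest rise was that of Vwf (log2 1.77) and the largest fall that of Flt3 (log2 -3.45). Because Parent also holds Syndecan-2+ cells, their share in it can limit a rise over Parent but not a fall. The sizes of rises and falls are therefore not directly comparable. Evc2, Evc and Iglc1, each at 0 CPM in all Syndecan-2- libraries, had Syndecan-2+ means of 4.16, 5.97 and 10.5 times the Parent mean. These ratios differ, and the part of such a limit in the sizes of rises was not tested. Values of the 3 Syndecan-2+ libraries lay entirely above those of the 3 Parent libraries for 2300 genes (16.4%) and entirely below for 2245 (16%). Within pairs of libraries with the same replicate number, 1445 of the 1462 rising genes were higher in all 3 pairs and 1507 of the 1524 falling genes were lower in all 3. The same libraries and pairing were used to call these genes, so these counts describe the calls and are no separate support for them.

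**Figure D2:**
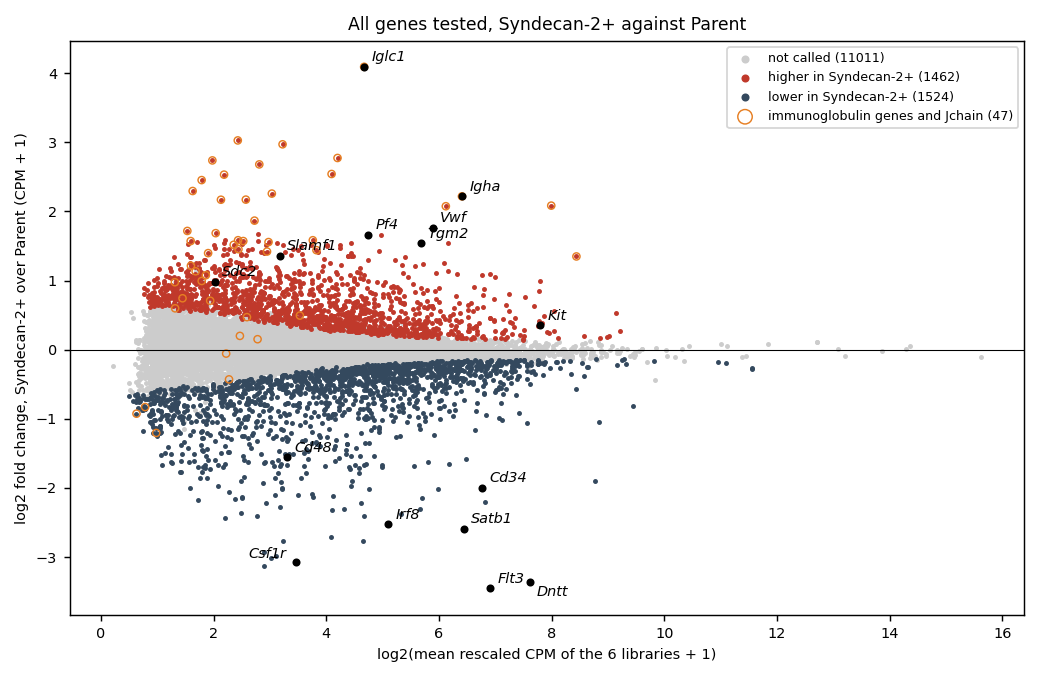
Log2 fold change of Syndecan-2+ over Parent (CPM plus 1) against the log2 mean level of the 6 libraries for 13997 genes. Red points rose (1462), dark points fell (1524) and grey points were not called, while orange rings mark 47 immunoglobulin genes and Jchain, which hold the top of the plot. Falls outside the immunoglobulin genes reach further than rises, with Flt3 at -3.45 and Vwf at 1.77. Parent also holds Syndecan-2+ cells, which can limit the size of rises but not of falls, and the part of this was not tested.

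The largest rise outside the immunoglobulin genes and Jchain was that of Vwf. Vwf, the platelet adhesion protein von Willebrand factor (chr6:125546774-125686679, + strand), was at 99.7, 81.1 and 91.1 CPM in Syndecan-2+ libraries against 27.04, 25.8 and 24.8 CPM in Parent libraries. Every Syndecan-2+ value lay above every Parent value, and the log2 fold change was 1.77 ± 0.08 (adjusted p = 1.13e-12). Pf4, a chemokine stored in platelet granules (chr5:90772435-90773383, + strand), was at 41.1, 36.6 and 41.1 CPM against 13.1, 10.6 and 11.8 CPM in Parent libraries (log2 1.66 ± 0.10). Sdpr, now called Cavin2 and part of the caveolar coat, averaged 46.7 ± 3.8 CPM in Syndecan-2+ and 14.2 ± 2.13 CPM in Parent libraries (SD, n = 3 each).

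Evc and Evc2 lie head to head on chromosome 5 and encode partner proteins at the base of the primary cilium. Evc2 was at 8.18, 8.40 and 11.96 CPM in Syndecan-2+ libraries, at 0 CPM in all 3 Syndecan-2- libraries and at 1.64, 2.23 and 2.99 CPM in Parent libraries. Evc was at 4.10, 3.04 and 4.55 CPM in Syndecan-2+ libraries, again at 0 CPM in Syndecan-2- libraries, and at 0.692, 0.596 and 0.671 CPM in Parent libraries. Both rose (log2 1.68 ± 0.19 and 1.56 ± 0.21). For a value of 0 in the Syndecan-2- libraries, the 3-read limit was 0.152 to 0.159 CPM before rescaling.

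Amotl2, a junction protein of the angiomotin family, averaged 9.28 ± 1.43 CPM in Syndecan-2+ and 2.52 ± 0.935 CPM in Parent libraries (log2 1.58 ± 0.18). Col1a2, a chain of type I collagen, was at 1.97, 2.33 and 14.9 CPM in Syndecan-2+ libraries against 0.781, 0.718 and 0.899 CPM in Parent libraries. It passed the test (log2 1.59 ± 0.33), yet replicate 3 alone stood far above the rest. Without Syndecan-2+ replicate 3 the log2 fold change was 0.85 and the call held (adjusted p = 0.0226, limma). With all libraries kept, the adjusted p was 0.112 with a robust estimate of the spread and 0.175 when tested per transcript. Col1a1, the other chain of this collagen, was below the filter and showed the same library, with 0.154, 0.151 and 20.2 CPM in Syndecan-2+ and at most 0.117 CPM in Parent libraries.

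The 2 deepest falls were those of Flt3 and Dntt. Flt3, the FLT3 ligand receptor of early progenitors (chr5:147330741-147400489, - strand), was at 18.5, 22.8 and 16.3 CPM in Syndecan-2+ libraries against 206, 218 and 232 CPM in Parent libraries. Dntt, the terminal transferase that adds bases at antigen receptor joints (chr19:41029275-41059523, + strand), was at 45.8, 41.7 and 19.5 CPM against 349, 348 and 364 CPM in Parent libraries. The log2 fold changes were -3.45 ± 0.08 and -3.36 ± 0.15, and the groups lay far apart. Csf1r, the receptor for the macrophage growth factor M-CSF, was at 0.884, 2.21 and 1.04 CPM in Syndecan-2+ against 15.4, 21.2 and 19.01 CPM in Parent libraries (log2 -3.07 ± 0.13). Satb1, a chromatin organiser of lymphoid genes, averaged 23.7 ± 2.38 CPM against 148 ± 7.51 CPM in Parent libraries, and Irf8, an interferon regulatory factor of monocytes and dendritic cells, 9.24 ± 2.51 CPM against 57.0 ± 3.17 CPM (SD, n = 3 each).

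The other 7 genes among the 12 largest falls named here are of mixed function. The semaphorin Sema3d, the sialic acid lectin Cd33, the potassium channel subunit Kcng1 and the RNA sensor Tlr7 each averaged under 1 CPM in Syndecan-2+ libraries (0.545, 0.834, 0.944 and 0.716 CPM), against 12.3, 13.4, 14.4 and 12.2 CPM in Parent libraries. Emp1, BC035044 and the calponin Cnn3 averaged 1.40, 5.52 and 3.53 CPM against 15.4, 42.7 and 28.3 CPM in Parent libraries. All 7 fell by 2.72 to 3.13 on the log2 scale.

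**Figure D3:**
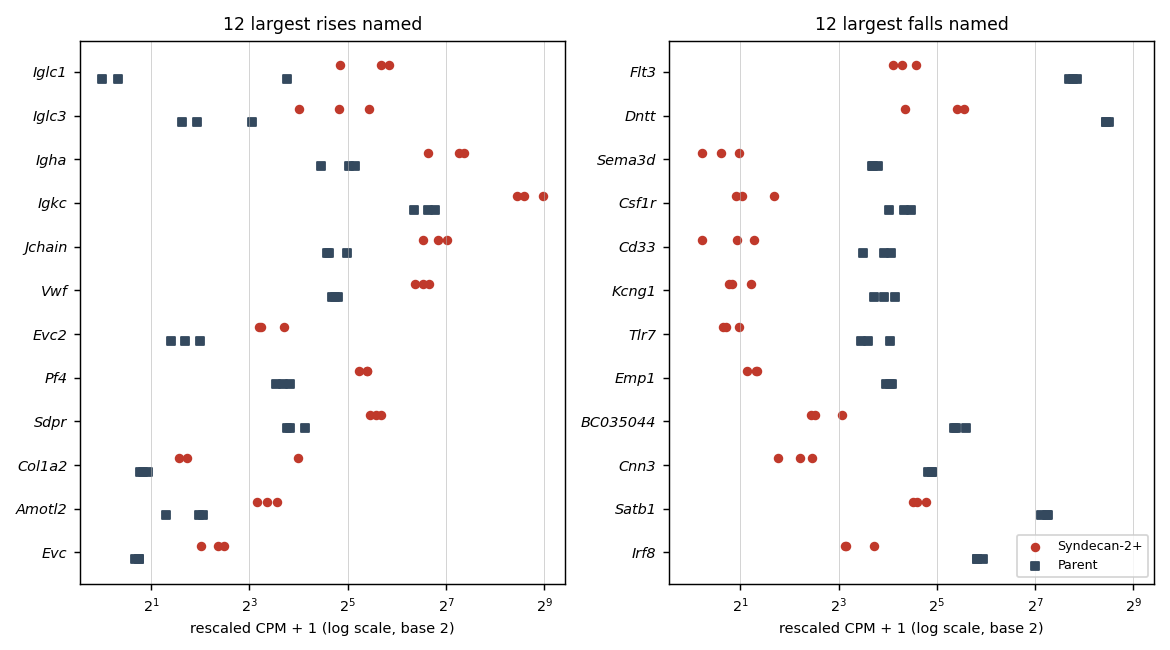
Rescaled CPM plus 1 on a log axis for the 12 largest named rises (left) and falls (right), with red circles for the 3 Syndecan-2+ and dark squares for the 3 Parent libraries. No gene shows overlap between its groups, and 1 of the Col1a2 points, Syndecan-2+ replicate 3 at 14.9 CPM, lies far from its group.

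Promoters of genes at both ends of the comparison are shown as 250 bases before the RefSeq start site (RefSeq, build GRCm38.p6). Pf4 and Slamf1 stand for rising platelet and HSC genes, Evc and Evc2 for neighbours that rose together, and Flt3 and Dntt for the deepest falls. Of 129 genes picked by the naming rule, 84 have a promoter in the table used. Capitals mark matches on either strand to 4 motif groups. GATA was searched as AGATAA and also as TGATAA. ETS was searched as CCGGAA and also as CAGGAA. RUNX was searched as TGTGGT, and the E-box as CAGCTG and also as CAGATG.
Pf4 promoter, chr5:90772185-90772434 (+ strand): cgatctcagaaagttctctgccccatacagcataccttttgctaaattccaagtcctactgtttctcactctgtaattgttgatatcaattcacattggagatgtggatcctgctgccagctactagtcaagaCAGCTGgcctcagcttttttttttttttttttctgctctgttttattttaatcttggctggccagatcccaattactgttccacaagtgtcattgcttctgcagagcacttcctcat
Slamf1 promoter, chr1:171766882-171767131 (+ strand): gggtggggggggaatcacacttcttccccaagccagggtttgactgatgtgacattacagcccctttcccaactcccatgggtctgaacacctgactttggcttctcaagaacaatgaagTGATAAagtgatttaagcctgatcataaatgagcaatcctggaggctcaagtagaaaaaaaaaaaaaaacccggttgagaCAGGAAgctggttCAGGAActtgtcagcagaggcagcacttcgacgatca
Evc promoter, chr5:37336882-37337131 (- strand): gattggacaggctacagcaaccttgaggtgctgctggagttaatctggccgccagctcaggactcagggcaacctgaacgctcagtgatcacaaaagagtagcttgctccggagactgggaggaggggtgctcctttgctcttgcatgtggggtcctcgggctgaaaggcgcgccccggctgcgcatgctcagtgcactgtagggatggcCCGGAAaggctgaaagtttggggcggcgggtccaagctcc
Evc2 promoter, chr5:37338228-37338477 (+ strand): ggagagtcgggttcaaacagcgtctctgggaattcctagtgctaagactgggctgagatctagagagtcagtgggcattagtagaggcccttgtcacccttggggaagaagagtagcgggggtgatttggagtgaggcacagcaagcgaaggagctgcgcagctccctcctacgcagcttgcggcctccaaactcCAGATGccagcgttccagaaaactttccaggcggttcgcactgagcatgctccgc
Flt3 promoter, chr5:147400490-147400739 (- strand): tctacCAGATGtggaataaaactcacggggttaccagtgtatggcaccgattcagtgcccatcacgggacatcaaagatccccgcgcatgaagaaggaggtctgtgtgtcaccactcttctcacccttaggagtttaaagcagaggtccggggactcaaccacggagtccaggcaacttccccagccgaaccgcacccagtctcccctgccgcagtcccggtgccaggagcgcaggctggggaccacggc
Dntt promoter, chr19:41029025-41029274 (+ strand): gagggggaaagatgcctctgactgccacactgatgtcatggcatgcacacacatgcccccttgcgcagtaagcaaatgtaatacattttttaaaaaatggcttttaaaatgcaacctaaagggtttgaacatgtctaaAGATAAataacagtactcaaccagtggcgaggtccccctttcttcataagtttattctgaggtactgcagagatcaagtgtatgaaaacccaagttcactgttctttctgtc
Of 9051 tested genes with a promoter in the table, 9.12% held the GATA, 41.0% the ETS, 10.8% the RUNX and 19.5% the E-box letters in this window. Among 1048 rising genes the shares were 9.92%, 34.8%, 9.26% and 22.8%, and among 1056 falling genes 9.66%, 39.0%, 13.0% and 20.9%. These shares are a description and were not tested. The Slamf1 window holds TGATAA and CAGGAA, that of Dntt AGATAA, those of Flt3 and Evc2 CAGATG, that of Pf4 CAGCTG and that of Evc CCGGAA.

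Long-term HSC genes rose almost as a whole. Of 42 tested members of this list, 38 rose and 1 fell, against 10.4% and 10.9% of all genes, and the median log2 fold change was 1.01. Members of this list and of those below were chosen with earlier results of these data known. Their counts are therefore a description and no separate support. Tgm2, a transglutaminase, was at 69.0, 70.6 and 85.4 CPM in Syndecan-2+ libraries against 22.4, 23.7 and 29.4 CPM in Parent libraries (log2 1.54 ± 0.09). The HSC transcription factor Mecom was at 63.7, 60.7 and 72.9 CPM against 27.2, 25.7 and 30.5 CPM in Parent libraries. Groups did not overlap for either gene. In bulk RNA a larger share of cells with a gene and more of its RNA per cell cannot be told apart, here and in every group below.

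Not every member moved. Vldlr, a lipoprotein receptor, fell to 5.18, 4.04 and 6.57 CPM in Syndecan-2+ libraries against 8.24, 7.24 and 9.40 CPM in Parent libraries (log2 -0.58 ± 0.13, adjusted p = 0.00237). The HSC marker Hoxb5 was at 1.33, 2.62 and 2.21 CPM against 1.20, 0.362 and 1.76 CPM in Parent libraries, with overlap, and did not pass (log2 0.57 ± 0.26, adjusted p = 0.131). Hoxb4 had a log2 fold change of 0.50 ± 0.18 at an adjusted p of 0.0507, and Ly6a was given above. Hlf, a stem cell factor widely used as an HSC marker, rose by 0.68 ± 0.07. The rises of Kit (0.36) and Hlf were smaller than the median of the list.

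Megakaryocyte and platelet genes rose as broadly. Of 24 tested members, 22 rose and 0 fell, with a median log2 fold change of 0.97. Itga2b (CD41), a platelet integrin, was at 148, 152 and 142 CPM in Syndecan-2+ libraries against 68.2, 69.1 and 69.7 CPM in Parent libraries (log2 1.08 ± 0.06). Zfpm1, the GATA1 partner FOG-1, was at 296, 293 and 293 CPM against 141, 144 and 157 CPM in Parent libraries (log2 1.00 ± 0.05). The 3 libraries of each population were close to each other for both genes. Vwf belongs to this list and to the HSC list. Plek, a platelet kinase substrate, and Selp, the platelet P-selectin, had values of 0.08 and 0.38 and were not called. Late platelet genes were scarce, since Ppbp was at most 0.513 CPM, Clec1b at most 1.05 CPM and Tubb1 at most 1.43 CPM in any Syndecan-2+ library, and none of the 3 passed the filter.

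Erythroid genes showed a smaller shift of the same direction. Of 13 tested members, 11 rose and 1 fell, with a median of 0.68. Car2, a carbonic anhydrase, was at 191, 193 and 189 CPM in Syndecan-2+ libraries against 114, 111 and 102 CPM in Parent libraries (log2 0.80 ± 0.05). Car1 averaged 32.5 ± 3.24 CPM against 15.7 ± 4.1 CPM, the water channel Aqp1 42.5 ± 3.6 CPM against 21.1 ± 3.01 CPM, and the transcription factor Tal1 70.2 ± 0.6 CPM against 45.1 ± 5.25 CPM in Parent libraries (SD, n = 3 each). The transferrin receptor Tfrc, which rises in maturing erythroid cells, instead fell to 25.0, 27.1 and 22.7 CPM against 32.7, 31.7 and 32.2 CPM in Parent libraries (log2 -0.36 ± 0.08). The adult globin genes Hba-a1, Hba-a2, Hbb-bt and Hbb-bs did not reach the filter, with at most 1.27 CPM in any Syndecan-2+ and 1.21 CPM in any Parent library.

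**Figure D4:**
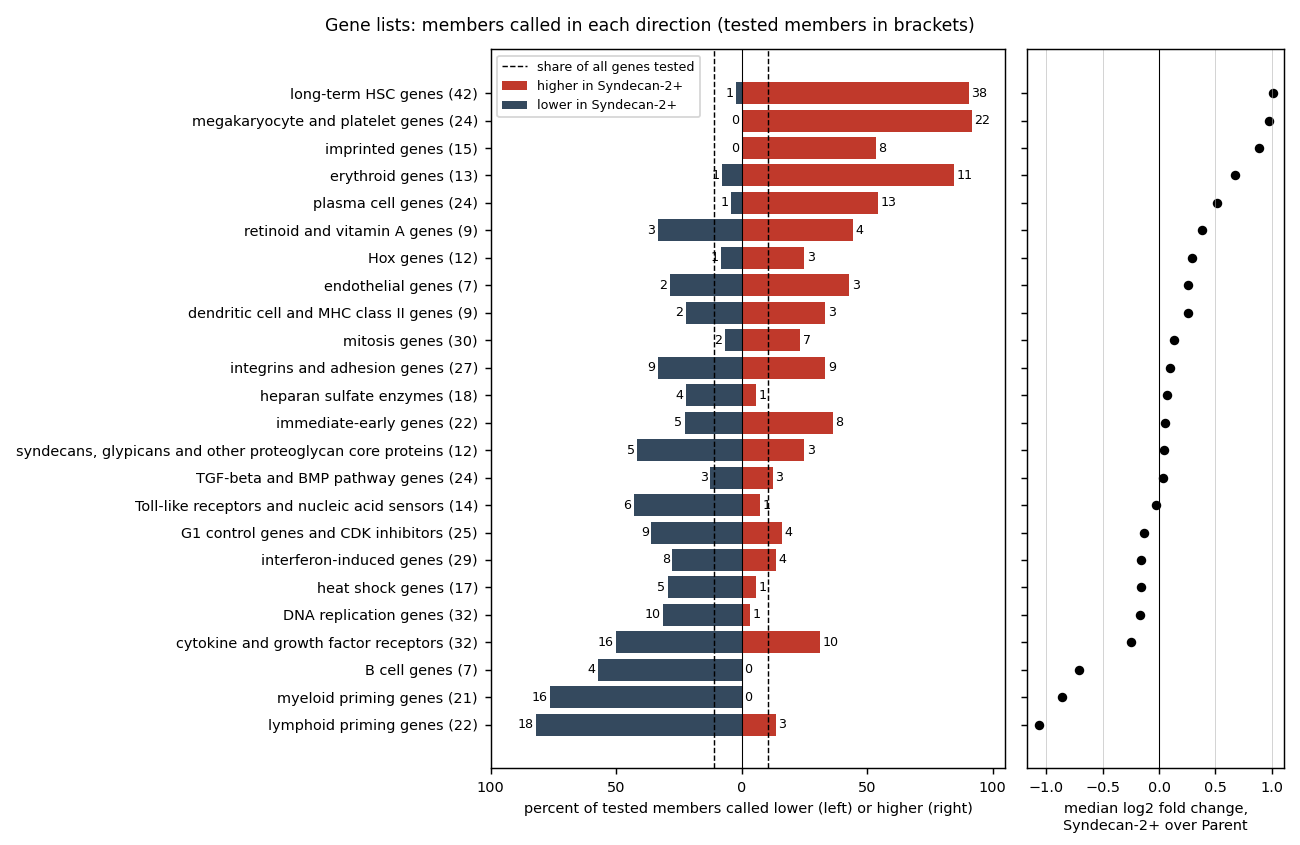
Share of the tested members of each gene list that were called higher (red, right) or lower (dark, left) in Syndecan-2+ than in Parent, with the numbers called beside the bars, and the median log2 fold change of the tested members (right panel). Lists with at least 7 tested members are drawn, ordered by median, and dashed lines mark the 10.4% and 10.9% of all genes called. Long-term HSC, megakaryocyte, imprinted and erythroid lists lie at the red end and myeloid and lymphoid priming lists at the dark end. The lists were chosen with earlier results of these data known.

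Lymphoid priming genes fell. Of 22 tested members, 18 fell and 3 rose, and the median log2 fold change was -1.07. Notch1, the receptor of T cell commitment, was at 40.7, 46.4 and 31.7 CPM in Syndecan-2+ libraries against 169.97, 176 and 207 CPM in Parent libraries (log2 -2.20 ± 0.10). Il12a, a subunit of interleukin 12, averaged 7.85 ± 0.35 CPM against 33.8 ± 0.75 CPM (SD, n = 3 each). The recombinase genes Rag1 and Rag2, Ccr9 and Il7r were among the other falls, at log2 values of -1.51, -1.71, -1.54 and -0.89.

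The Ikaros family factor Ikzf3 (log2 0.81 ± 0.25), the T cell factor Tcf7 (0.58 ± 0.12) and Ltb, which encodes lymphotoxin beta (0.37 ± 0.11), rose. Tcf7 was at 18.3, 25.1 and 23.2 CPM in Syndecan-2+ libraries against 11.96, 14.7 and 16.8 CPM in Parent libraries. The count of rises was 1 when replicate 1 or replicate 2 was left out of either population or of both. Bcl11a was the single member not called, at -0.16.

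Myeloid priming genes fell as well, with 16 of 21 tested members lower, 0 higher and a median of -0.86. Emb, which encodes embigin and marks primed progenitors, was at 12.1, 20.04 and 16.6 CPM in Syndecan-2+ libraries against 76.9, 86.5 and 85.6 CPM in Parent libraries (log2 -2.31 ± 0.09). Plac8 averaged 34.4 ± 5.97 CPM against 109 ± 5.89 CPM in Parent libraries. The granule enzyme Mpo was at 231, 466 and 224 CPM against 551, 726 and 538 CPM in Parent libraries (log2 -1.05 ± 0.09), so replicate 2 was the highest in both populations. The summed level of the list followed the same order, with 430.3, 801 and 434 CPM in Syndecan-2+ and 1100.15, 1346 and 1081 CPM in Parent libraries. Elane, the neutrophil elastase gene, was at 24.1, 54.5 and 22.3 CPM against 24.4, 37.3 and 21.4 CPM in Parent libraries and was not called (log2 0.19 ± 0.11), and Ly6c2, Ms4a3, Csf2ra and Fcgr3 were not called either.

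Cytokine and growth factor receptors moved in both directions. Of 32 tested, 16 fell and 10 rose. Il1r1, the interleukin 1 receptor, was at 7.02, 4.28 and 5.95 CPM in Syndecan-2+ libraries against 31.1, 32.2 and 32.3 CPM in Parent libraries (log2 -2.30 ± 0.11). The interleukin 6 receptor Il6ra and its partner Il6st, the interferon receptor chains Ifnar1, Ifnar2 and Ifngr2, and the chemokine receptor Cxcr4 were also lower, at log2 values of -1.44, -1.03, -0.34, -1.15, -0.80 and -0.70. Among the rises were the angiopoietin receptors Tek and Tie1, the growth hormone receptor Ghr, Fgfr1, Fgfr3, Epor, Il11ra1, Igf1r and Kit, at 0.28 to 1.30.

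Immunoglobulin RNA was the largest rise in the whole comparison. Of 47 tested immunoglobulin genes and Jchain, 32 rose and 3 fell. Members such as Igkv5-48, at 0 CPM in all Parent and Syndecan-2- libraries, passed the filter only through the Syndecan-2+ libraries. The direction of this count therefore follows in part from the filter. Of 137 listed variable (V) genes 37 were tested, and 55 to 62 reached 1 CPM in Syndecan-2+ libraries, 19 to 31 in Parent and 3 to 4 in Syndecan-2- libraries. The summed level of all 156 listed immunoglobulin genes and Jchain was 1889, 1584 and 1529 CPM in Syndecan-2+ libraries. Syndecan-2- libraries held 156, 134 and 139 CPM, and Parent libraries 462, 459.7 and 488 CPM. Igkc, the kappa constant region (chr6:70726435-70726966, + strand), was at 504, 384 and 347 CPM in Syndecan-2+ libraries against 109, 79.96 and 98.4 CPM in Parent libraries (log2 2.08 ± 0.20). Igha, the IgA constant region, was at 164, 98.8 and 153 CPM against 34.4, 31.5 and 20.9 CPM in Parent libraries (log2 2.22 ± 0.15). Jchain, which joins secreted IgA and IgM, was at 129, 91.3 and 114 CPM against 23.4, 22.9 and 30.7 CPM in Parent libraries (log2 2.08 ± 0.14). All 3 were near 0 in the Syndecan-2- libraries, with at most 1.496 CPM, and none of them overlapped between Syndecan-2+ and Parent.

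Ighm, the IgM constant region, behaved differently in that it was also present in the Syndecan-2- libraries. It was at 529, 514 and 449.97 CPM in Syndecan-2+ libraries, whereas Syndecan-2- libraries had 142, 119.6 and 116 CPM and Parent libraries 182, 189 and 213 CPM (log2 1.35 ± 0.07 against Parent). Ighd fell, to 0.092, 0.333 and 0.158 CPM against 1.76, 2.05 and 1.45 CPM in Parent libraries. The lambda constant genes Iglc1 and Iglc3 averaged 44.7 ± 15.1 and 28.1 ± 13.4 CPM in Syndecan-2+ libraries and 4.25 ± 7.14 and 4.08 ± 2.84 CPM in Parent libraries. These lambda genes and the variable (V) genes share reads with close copies, so single members are uncertain.

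V genes differed between libraries of the same population. In each Syndecan-2+ library 12 to 13 of the 137 listed V genes reached 10 CPM, 25 did so in any of the 3 libraries, 4 in all 3 (Igkv1-135, Ighv11-2, Igkv12-89 and Iglv1) and 17 in exactly 1. Ighv11-2 was at 18.6, 24.2 and 16.4 CPM in Syndecan-2+ libraries against 7.86, 6.71 and 5.28 CPM in Parent libraries. Ighv5-16, by contrast, was at 25.2, 0 and 0.105 CPM against 3.34, 1.51 and 0 CPM in Parent libraries. In the Parent libraries only Igkv8-30 reached 10 CPM, in replicate 2 (17.4 CPM).

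**Figure D5:**
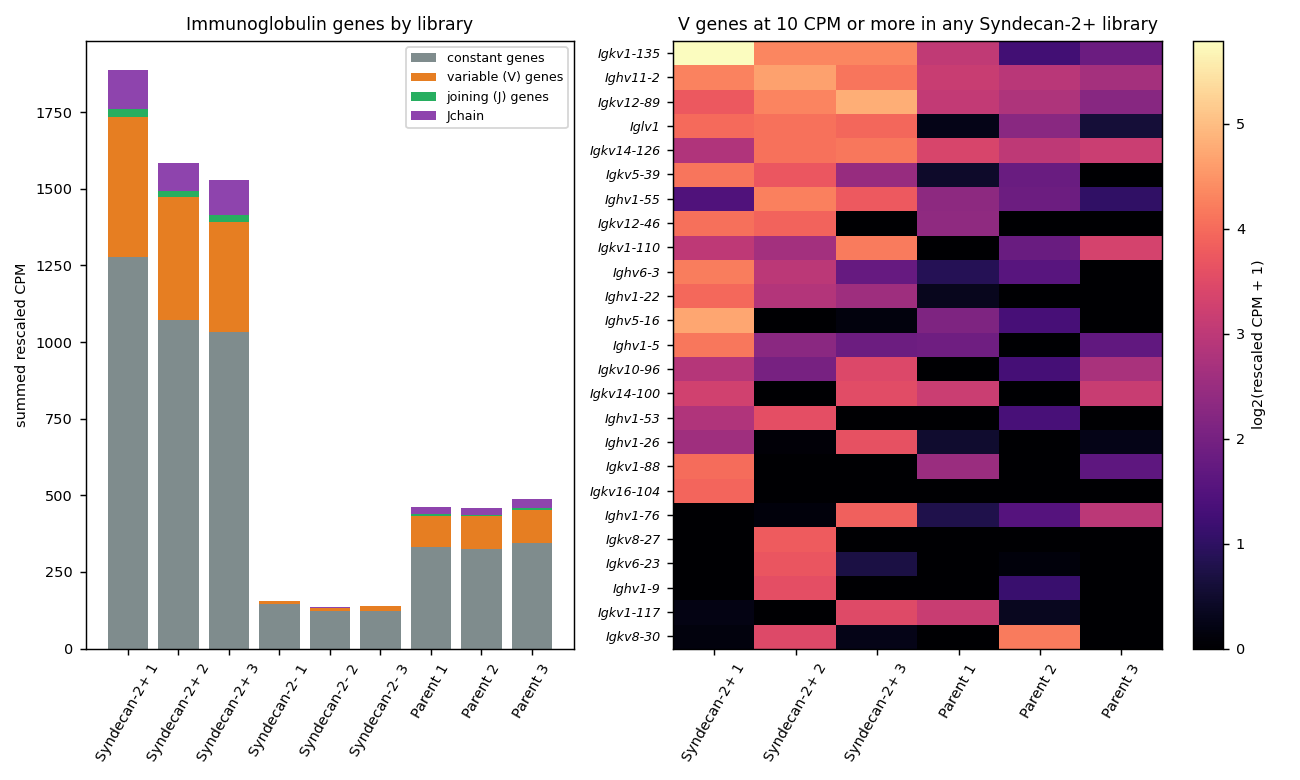
Left, summed rescaled CPM of immunoglobulin constant, V and J genes and Jchain in each library, which reaches 1529 to 1889 CPM in Syndecan-2+, 134 to 156 CPM in Syndecan-2- and 459.7 to 488 CPM in Parent libraries. Right, log2 of CPM plus 1 of the 25 V genes that reached 10 CPM in any Syndecan-2+ library, where most rows are bright in some Syndecan-2+ libraries and dark in others.

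Other plasma cell genes moved less. Of 24 tested members of the plasma cell list, 13 rose and 1 fell, and 6 of the rises are constant region genes or Jchain. Its summed level was 1673, 1435 and 1425 CPM in Syndecan-2+ and 596, 608 and 637 CPM in Parent libraries. The 7 other rises were Xbp1, Txndc5, Cd38, Mzb1, Pou2af1, Slamf7 and Ell2, at log2 values of 0.34 to 0.82. Sdc1, which encodes the plasma cell surface marker CD138 and is itself a syndecan, fell to 4.66, 3.29 and 3.32 CPM in Syndecan-2+ libraries against 13.4, 13.5 and 15.3 CPM in Parent libraries (log2 -1.67 ± 0.13). Prdm1 and Irf4, transcription factors of plasma cells, were not called (0.58 and 0.44). The part of plasma cells in the other results was not tested. With immunoglobulin genes and Jchain left out 2998 genes were called, 1463 higher and 1535 lower. That step drops only those genes and leaves any other plasma cell RNA in place, so it cannot answer this.

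Calls in B, T and NK cell genes were all lower, and those in neutrophil and monocyte genes went both ways. Of 7 tested B cell genes, 4 fell and 0 rose, among them the B lineage factors Pax5 (log2 -1.10 ± 0.24) and Ebf1 (-0.81 ± 0.21), and the list summed to 10.4 to 11.5 CPM in Syndecan-2+ and 14.9 to 23.6 CPM in Parent libraries. Of 4 tested T and NK cell genes, 3 fell (Lck, Cd28 and Nkg7, at -0.77, -0.61 and -0.33), and the list summed to 21.9 to 23.5 CPM against 32.6 to 37.1 CPM in Parent libraries. Of 3 tested neutrophil and monocyte genes, Lyz2 rose (0.28 ± 0.08) and Ccr2 fell (-1.48 ± 0.19), with sums of 35.7 to 37.5 CPM in Syndecan-2+ and 32.0 to 38.1 CPM in Parent libraries. S100a8 was at most 0.211 CPM in Syndecan-2+ and 0.324 CPM in Parent libraries.

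Macrophage, dendritic, endothelial and stromal lists held calls in both directions. Of 5 tested macrophage genes, the receptor kinase Axl and the iron exporter Slc40a1 rose (0.78 and 0.95), and Cd68 and Cd163 fell (-0.78 and -0.74). Adgre1, the F4/80 antigen, was at most 0.0912 CPM in Syndecan-2+ libraries. In the dendritic cell and MHC class II list of 9, Cd74, H2-Aa and Zbtb46 rose (0.75, 0.64 and 0.74), while H2-DMa and Itgax fell (-0.69 and -0.98). For H2-Aa the groups overlapped, at 5.43, 11.4 and 9.59 CPM in Syndecan-2+ libraries against 5.66, 5.43 and 4.16 CPM in Parent libraries. None of 6 tested mast cell and basophil genes was called by limma, and 0 were under an unadjusted p of 0.05, with a median log2 fold change of -0.02. Of 7 tested endothelial genes, Eng, Kdr and Stab2 rose (0.51, 0.97 and 0.90), whereas Egfl7 and Pecam1 fell (-1.35 and -0.84). Cdh5, a defining endothelial gene, was at most 0.718 CPM in Syndecan-2+ libraries and 0.293 CPM in Parent libraries. Of 3 tested stromal genes, Pdgfrb and Runx2 fell (-1.56 and -0.73) and Col1a2 rose as described.

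Among proteoglycans, Sdc2 was the only syndecan that rose. The other syndecans fell, and they were Sdc1 (described above), Sdc3 (log2 -0.52) and Sdc4 (log2 -1.05). Of 12 tested core proteins, 3 rose and 5 fell. Tgfbr3 (betaglycan), a co-receptor that presents TGF-beta, was at 75.7, 68.9 and 73.4 CPM in Syndecan-2+ libraries against 30.2, 29.1 and 31.6 CPM in Parent libraries (log2 1.24 ± 0.07). Bgn, the small matrix proteoglycan biglycan, was at 8.61, 7.76 and 8.69 CPM against 2.01, 1.93 and 3.40 CPM in Parent libraries (log2 1.46 ± 0.19). Both lay clear of the Parent values. The hyaluronan receptor Cd44 fell to 64.6, 64.1 and 65.3 CPM against 109, 104 and 112 CPM in Parent libraries (log2 -0.73 ± 0.06), and the glypican Gpc2 fell by 0.53.

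Most enzymes that build and cut heparan sulfate were not called, which holds for most genes of any kind (10.9% of all genes fell and 10.4% rose). Of 18 tested, 4 fell, 1 rose and 13 were not called, which include the chain polymerases Ext1 (log2 -0.33) and Ext2 (0.18). Hpse, the heparanase that cleaves the chains, fell to 0.769, 1.38 and 0.527 CPM in Syndecan-2+ libraries against 4.85, 4.10 and 4.22 CPM in Parent libraries (log2 -1.53 ± 0.18). The sulfatase Sulf2 (-0.78), the epimerase Glce (-0.44) and the sulfotransferase Ndst1 (-0.35) also fell. Hs3st1, a 3-O-sulfotransferase, rose (0.63 ± 0.21, adjusted p = 0.0399), but that call was lost in 12 of the 23 alternative settings in which it was tested. In the TGF-beta and BMP list of 24, the SMAD antagonists Ski and Skil and the receptor Bmpr2 rose (0.60, 0.59 and 0.19), and Tgif1, Smad7 and Smad4 fell (-0.86, -0.55 and -0.26). With a share of 3 in 24 in each direction, this list lies near the background of all genes.

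Cell cycle genes changed by small amounts. Of 32 tested DNA replication genes, 10 fell and 1 rose, with a median of -0.17. Uhrf1, which copies DNA methylation at forks, was at 66.8, 69.4 and 65.5 CPM in Syndecan-2+ libraries against 88.2, 91.2 and 89.4 CPM in Parent libraries (log2 -0.41 ± 0.05). The helicase subunits Mcm6 and Mcm7 and the licensing factor Cdt1 fell by 0.34, 0.37 and 0.35, and Chaf1b, a chromatin assembly factor, rose by 0.28. Of 30 tested mitosis genes, 7 rose and 2 fell, with a median of 0.13. Hmmr, a spindle protein, averaged 28.5 ± 1.65 CPM against 20.9 ± 2.03 CPM in Parent libraries (log2 0.43 ± 0.09), Prc1 rose by 0.29, and the cytokinesis genes Ect2 and Kif23 fell by 0.62 and 0.44. The count of rising mitosis genes was 2 without replicate 2 or replicate 3 of all populations, without Syndecan-2+ replicate 1, and without Parent replicate 2 or replicate 3. Mki67, the Ki-67 antigen, was at 543, 474 and 454 CPM against 452, 429 and 417 CPM in Parent libraries, a rise of 0.18 ± 0.06 (adjusted p = 0.0433) that did not hold without the replicate block (adjusted p = 0.138). Without Syndecan-2+ replicate 1 the log2 fold change of Mki67 was 0.097 (adjusted p = 0.353, limma). The call was also lost without any single Parent library (adjusted p of 0.0808 to 0.187, limma), without replicate 3 of Syndecan-2+ or of Syndecan-2- (0.0677 and 0.0587), without any 1 replicate number (0.0545 to 0.187), with no filter on low values (0.0854) and per transcript (0.231).

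Genes that control entry into the cycle were divided. Of 25 tested, 9 fell and 4 rose. Cdkn1c, the CDK inhibitor p57 that is known for HSC quiescence, was at 8.76, 7.18 and 7.01 CPM in Syndecan-2+ libraries against 1.89, 2.59 and 4.10 CPM in Parent libraries (log2 1.20 ± 0.20). Mycn averaged 59.8 ± 8.38 CPM against 33.0 ± 2.01 CPM (log2 0.83 ± 0.09), while its relative Myc fell to 108, 81.6 and 117 CPM against 145, 136 and 178 CPM in Parent libraries (log2 -0.58 ± 0.06). The cyclin-dependent kinases Cdk6 and Cdk4 fell by 0.38 and 0.39, and 2 other CDK inhibitors, Cdkn1a and Cdkn1b, fell by 0.40 and 0.34.

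Imprinted genes, which are transcribed from 1 parental allele, rose or were not called. Of 15 tested, 8 rose and 0 fell, with a median of 0.89. Grb10, an adaptor that dampens insulin receptor signals, was at 44.3, 37.7 and 49.2 CPM in Syndecan-2+ libraries against 17.2, 13.6 and 16.1 CPM in Parent libraries (log2 1.42 ± 0.10). Meg3, a maternally expressed long non-coding RNA, averaged 9.29 ± 1.08 CPM against 3.02 ± 1.52 CPM (log2 1.41 ± 0.20), and H19, another, 3.30 ± 0.95 CPM against 0.673 ± 0.10 CPM (log2 1.34 ± 0.23). Gnas and Kcnq1ot1 were not called, at -0.03 and 0.09. Of 12 tested Hox genes, Hoxb2, Hoxb3 and Hoxa10 rose (1.17, 0.80 and 0.72), and Hoxa9, a factor of progenitor growth, fell to 23.3, 35.0 and 27.6 CPM against 43.7, 47.9 and 42.9 CPM in Parent libraries (log2 -0.65 ± 0.08).

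Of 9 tested retinoid genes, 4 rose and 3 fell. Aldh1a1, which makes retinoic acid, was at 20.6, 17.4 and 18.1 CPM in Syndecan-2+ libraries against 5.41, 6.86 and 5.56 CPM in Parent libraries (log2 1.51 ± 0.16). The retinoic acid receptor Rarb and the degrading enzyme Cyp26b1 also rose (0.90 and 1.13). Dhrs3, which returns retinal to retinol, fell by 1.44, the receptor Rara by 1.19 and Rxrb by 0.26.

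Adhesion genes split evenly, with 9 of 27 higher and 9 lower. Itgal, the alpha chain of LFA-1, was at 15.1, 16.5 and 11.4 CPM in Syndecan-2+ libraries against 45.1, 45.7 and 51.1 CPM in Parent libraries (log2 -1.67 ± 0.09), and the selectin ligand Selplg fell by 0.93. The junction protein Esam rose to 15.8, 15.2 and 17.8 CPM in Syndecan-2+ libraries, against 6.04, 4.16 and 5.21 CPM in Parent libraries. Its relatives Jam2 and Jam3 rose by 0.77 and 1.37, and so did the integrin chains Itgb3, Itga6, Itga5 and Itgb1 (1.22, 0.85, 0.57 and 0.27).

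Innate sensors were mostly lower or not called. Of 14 tested, 6 fell and 1 rose. Tmem173 (STING), the adaptor of cytosolic DNA sensing, was at 10.6, 11.6 and 8.38 CPM in Syndecan-2+ libraries against 31.9, 27.8 and 34.3 CPM in Parent libraries (log2 -1.54 ± 0.11). Unc93b1, the chaperone of endosomal Toll-like receptors, averaged 21.3 ± 2.06 CPM against 52.1 ± 2.81 CPM (log2 -1.26 ± 0.07). The RNA sensor Ifih1 (MDA5) rose by 0.62 ± 0.10. Of 29 interferon-induced genes, 8 fell and 4 rose, among them Oas2 (-0.87), Mx1 (-1.08) and Ifi27l2a (-1.10) lower and Iigp1 (0.64) higher.

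Immediate-early genes, which are induced within minutes of a stimulus, were divided, with 8 of 22 higher and 5 lower. Fosl2 was at 95.6, 97.4 and 155 CPM in Syndecan-2+ libraries against 59.5, 64.7 and 90.6 CPM in Parent libraries (log2 0.68 ± 0.08), Nr4a2 rose by 0.70 and Dusp2 fell by 0.55. Without the replicate block the count was 2 higher and 2 lower. Hspa1a, an inducible HSP70 gene, was at 109, 1806 and 20.6 CPM in Syndecan-2+ libraries, at 180.1, 2829 and 33.6 CPM in Syndecan-2- libraries, and at 356, 1847 and 34.4 CPM in Parent libraries. The heat shock list summed to 4199, 10993 and 3871 CPM in Syndecan-2+ and 5412, 10952 and 4263 CPM in Parent libraries, so replicate 2 was highest in each. With the replicate block 5 of 17 members fell and 1 rose, and without it 0 fell. The part of this in the other results was not tested, and without the replicate 2 libraries 2395 genes were called, 1142 higher and 1253 lower.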

How the data were processed

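RNA sequencing of 3 sorted populations, with 3 libraries each, was analysed. The authors deposited CPM per transcript, to which 0.0001 had been added, per the file headers and values. Which reads the CPM are relative to is not given in the sources used here, since the listed transcripts hold 51.5 to 54.5% of the nominal total. The submitters' processing notes name STAR, Bowtie2 and GRCm38, with no versions or roles. The 0.0001 was subtracted, transcripts were summed per gene symbol, genes at 1 CPM or more in at least 3 of 9 libraries were kept, and libraries were rescaled by TMM. The log2 of CPM plus 1 was fitted with limma 3.58.1 (trend, R 4.3.3) over all 9 libraries, a block for replicate number and Benjamini-Hochberg adjustment over 13997 genes. Libraries that share a number deviated together from their population means (r of 0.19 to 0.537 over 9 pairs, against -0.454 to 0.0696 for unlike numbers), which the sources do not explain. No 2 libraries were identical. The median squared difference between replicates of Syndecan-2+ or of Parent was 3.29 to 4.71 times that of counting noise. The 12 largest rises and falls that passed with no overlap, leaving out clone and model names and immunoglobulin V, D and J segments, were named with a set of marker genes and the strongest members of each list. Other members were picked after their values were seen, and members and lists were chosen with earlier results of these data known. The test was checked on simulated data with 200 changed genes. It called 68.5% of them at 1.5-fold, 92.5% at 2-fold and 99.5% at 4-fold. Unchanged genes made up 5.52 to 7.5% of those calls, and with no gene changed 0 were called. The last column of the table has no name and holds a stray note, which was not used. Sums and tables used Python 3.11.15 with pandas 2.3.3, and plots matplotlib 3.10.9. Limits of 3 reads cover counting error only.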

Additional observations from a re-analysis of the deposited data

How the results depend on the processing

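The count of calls was 2986 (1462 higher, 1524 lower). It was 2440 without the replicate block (1200 higher, 1240 lower), where 2437 of the 2986 calls held in the same direction (81.6%), and Sdc2 had the same log2 fold change of 0.98. It was 2001 at a minimum of 10 CPM (986 higher, 1015 lower), where fewer genes were tested and Sdc2 was not among them. Tested per transcript it was 961 (370 higher, 591 lower), and the cause was not tested. Leaving out 1 library gave 2243 to 3071 calls, and leaving out 1 replicate number gave 2067 to 2395 (989 to 1142 higher, 1078 to 1253 lower). The log2 fold change of Sdc2 was 0.91 to 1.12 over these, and 0.48 to 1.303 with pseudocounts of 5 and 0.1. Of 125 named genes that could be tested per transcript, 54 lost their call, 70 kept it or stayed uncalled, and 1 changed sign. That was Mx1, which had a log2 fold change of 0.029 (adjusted p = 0.982, limma) with its most abundant transcript, against -1.08. No named call took the opposite direction in the other settings run. The depth of 15.5 to 20.6 reads per CPM limits genes near 1 CPM, where fold changes on CPM plus 1 are understated.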
